A study of Homo sapiens with 6 samples.

Results

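Autotaxin and the transcripts around its product, lysophosphatidic acid (LPA), were examined in CHL-1 cells, an established human melanoma line that carries the EWSR1::CREM fusion gene. The rows of 10 genes were taken by symbol from the 21625 genes of the deposited CPM table: the gene of autotaxin (ENPP2), the 6 LPA receptors LPAR1 to LPAR6, and the 3 lipid phosphate phosphatases PLPP1 to PLPP3. These 10 genes were chosen by the CPM difference between CREM siRNA and control siRNA in these libraries, so that difference is described for them and not tested. CHL-1 cells were transfected for 48 h with 50 nM control siRNA or with 50 nM CREM siRNA, and 3 libraries of each group were sequenced. The paper states that its cell lines were maintained in medium with fetal bovine serum, and some deposited column names contain the word serum. The control was a mix of non-targeting siRNAs, and the CREM siRNA was a pool directed at the DNA-binding part of CREM, which the fusion and wild-type CREM share, so that lowering of the one cannot be told apart from lowering of the other. All libraries came from the same cell line, and the methods and column names speak of 3 experiments without saying what separated them. The p-values below therefore set the difference between the groups against the scatter of these libraries, and that scatter can be technical in part.

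Autotaxin is a secreted lysophospholipase D that cleaves choline from lysophosphatidylcholine outside the cell and so makes LPA, and it was first isolated as a motility factor from melanoma cell medium. LPA acts through G protein-coupled receptors. LPAR1, LPAR2 and LPAR3 belong to the EDG family, which also holds the sphingosine 1-phosphate receptors, whereas LPAR4, LPAR5 and LPAR6 are closer to the purinergic receptors. PLPP1, PLPP2 and PLPP3 are membrane phosphatases that can remove the phosphate of LPA at the cell surface and thereby end its signal.

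The libraries held 17221794 to 29793837 reads. CREM itself, the siRNA target, was at 5.62% of its control mean after knockdown. CPM are reads of a gene scaled by the authors with 1 factor per library. The deposited CPM sum to 973557 to 1007040 per library, so the factor is not set by the read total alone. Across 13536 genes averaging 1 CPM or more, 10028 (74.1%) differed between the groups at an adjusted p under 0.05 from limma on log2(CPM + 0.5), 5068 (37.4%) higher and 4960 (36.6%) lower after knockdown. With each library scaled to GAPDH the split was 6352 genes called across the table as higher and 3314 as lower, and with scaling to reference genes 8460 and 2736. Any share among the genes below is to be read against that background. Of the 13 reference genes, 9 were themselves called lower and 2 higher as deposited, with a median log2 difference of -0.475. GAPDH had a log2 difference of -0.195 (adjusted p = 0.0140 from limma). These scalings therefore rest on genes that differed between the groups. The melanocyte lineage factor SOX10 was abundant (866 ± 34.1 CPM before and 1383 ± 39.2 CPM after knockdown, SD, n = 3 each). The summed level of 8 melanocyte lineage genes was 1093 to 1163 CPM in control libraries and 2994 to 3158 CPM in CREM siRNA libraries, with SOX10, MITF, S100B and DCT called higher, and its part in the results below was not tested. DCT, a melanin enzyme, rose from 145 ± 7.58 to 1439 ± 98.6 CPM (log2 difference 3.31, adjusted p = 4.01e-15 from limma). The pigment cell genes MLANA and TYR were at 0 in 4 of the 6 libraries and had reads only in replicate 3 of each group, which also had the highest level of PMEL (5.47 and 23.5 CPM against 1.05 to 2.29 CPM in the others). Values without both of these libraries are therefore given where they touch a result.

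ENPP2 stood at 140, 131 and 165 CPM in control libraries 1 to 3 and at 2464, 2231 and 2566 CPM in the 3 CREM siRNA libraries. The groups lay far apart, and the mean after knockdown, 2420 ± 172 CPM (SD, n = 3), was 16.7 times the control mean of 145 ± 17.5 CPM (SD, n = 3). These values rest on 2429 to 3916 reads per control library and on 54529 to 72898 reads per CREM siRNA library. On the log2 scale the difference was 4.06 (standard error 0.0790), the 20th largest increase of the 13536 genes, among which a log2 difference of at least 4 was found for 0.177%, of at least 3 for 0.598%, of at least 2 for 2.11% and of at least 1 for 8.39%. Among all genes ENPP2 stood at rank 1461 by CPM with control siRNA and at rank 15 with CREM siRNA, when its reads were 0.244% of the library. In both groups the highest ENPP2 value was that of replicate 3, and without both replicate 3 libraries the ratio was 17.3. ENPP2 lies on the minus strand of chromosome 8 from 119557086 to 119673453 (GRCh38, GENCODE 29) and overlaps there only a processed pseudogene.

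The relatives of autotaxin that were measured were low. ENPP1, which makes pyrophosphate from extracellular ATP, was at 0.649 ± 0.352 CPM before and at 1.23 ± 0.0356 CPM after knockdown (SD, n = 3 each). ENPP3, ENPP4 and ENPP5 had means of 0.319, 0.998 and 0.448 CPM with control siRNA and of 0.352, 0.991 and 0.345 CPM with CREM siRNA. These 4 paralogs were all below the minimum mean of 1 CPM and were not tested. ENPP6 and ENPP7 were not found among the genes of the deposited CPM table.

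Genes whose pattern over the 6 libraries was most like that of ENPP2 were NLRC5 (a regulator of MHC class I genes), SEMA7A (a membrane-anchored semaphorin), ARMC9, CRISPLD1 and SDC2 (the proteoglycan syndecan 2), each with a Pearson r of 1.00 on log2(CPM + 0.5). The likeness follows mainly from the distance between the groups, and 904 of the 10253 genes compared had an r above 0.99. Their sizes differed from that of ENPP2: CRISPLD1 rose by 1.28 on the log2 scale and SEMA7A by 3.27.

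Autotaxin is also known as a product of oligodendrocytes and adipocytes. The myelin gene MBP rose from 120.0 ± 1.68 to 264 ± 15.0 CPM and MOG from 55.4 ± 7.70 to 143 ± 13.3 CPM (SD, n = 3 each; log2 differences 1.13 and 1.36, adjusted p = 9.06e-11 and 2.77e-09 from limma). MAG, at 20.1 ± 1.40 and 22.9 ± 1.97 CPM, was not called (adjusted p = 0.0599 from limma). Of the adipocyte genes ADIPOQ and LEP were at 0 in every library and PLIN1 was below 1 CPM, while CFD (complement factor D) fell from a control mean of 4.43 ± 0.405 CPM (log2 difference -1.30, adjusted p = 4.81e-07 from limma). The part of these myelin genes in the ENPP2 result was not tested. In bulk RNA of this kind, a change in the number of cells that make a transcript and a change in the amount per cell cannot be told apart.

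**Figure D1:**
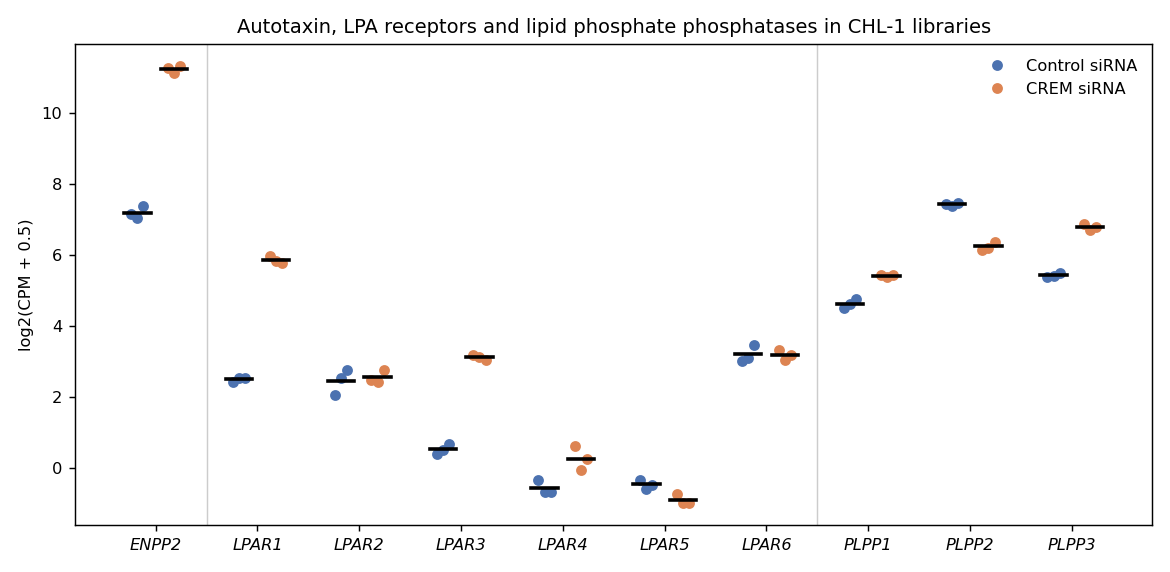
Level of each gene, as log2(CPM + 0.5), in the 3 control siRNA libraries (blue) and the 3 CREM siRNA libraries (orange), with the group mean as a black line. ENPP2, LPAR1, LPAR3, PLPP1 and PLPP3 were higher in every CREM siRNA library, PLPP2 was lower, LPAR2 and LPAR6 overlapped, and LPAR4 and LPAR5 had at most 1.01 CPM in any library.

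LPAR1, the most widely expressed LPA receptor and one that couples to Gi, Gq and G12/13 proteins, was low in control siRNA libraries, at 4.85, 5.27 and 5.30 CPM. With CREM siRNA it was at 61.8, 55.8 and 54.0 CPM, so that the groups were separate and the mean was 11.1 times the control mean. In reads this was 84 to 129 per control library against 1344 to 1829 per CREM siRNA library. The log2 difference was 3.35 (standard error 0.0790), the 50th largest increase. LPAR1 lies on the minus strand of chromosome 9 from 110873263 to 111038458.

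LPAR3, an EDG receptor that prefers LPA with unsaturated acyl chains, had only 14, 22 and 26 reads in the control siRNA libraries, or 0.808, 0.899 and 1.09 CPM. It had 251, 200 and 192 reads in the CREM siRNA libraries, or 8.48, 8.18 and 7.71 CPM, and these values did not overlap those of the controls. The ratio of the means was 8.71, and 9.76 without both replicate 3 libraries. LPAR3 passed the minimum mean of 1 CPM only through its CREM siRNA libraries. Its log2 difference was 2.59 (standard error 0.132) with 0.5 CPM added before the logarithm, but 1.37 on log2(RPKM + 1), because the added amount is large beside so low a control level. The paper's list of predicted CREM targets gives LPAR3 as lower after CREM siRNA, the opposite direction to these values. The source of this disagreement was not tested. The gene lies on the minus strand of chromosome 1 from 84811602 to 84893213.

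LPAR2 and LPAR6 did not separate the groups. LPAR2, the third EDG receptor, was at 3.64, 5.27 and 6.18 CPM with control siRNA and at 5.04, 4.87 and 6.19 CPM with CREM siRNA. Its log2 difference of 0.11 (standard error 0.161) was within the spread of the libraries. LPAR6, a receptor known from inherited hair loss, was at 7.56, 8.09 and 10.6 CPM against 9.40, 7.61 and 8.56 CPM. The log2 difference of LPAR6 was -0.025 (standard error 0.124), and it was 0.34 with scaling by reference genes. LPAR6 lies on chromosome 13 from 48389567 to 48444704, inside RB1 (the retinoblastoma gene) and on the opposite strand. RB1 had means of 68.4 CPM in the control group and 49.1 CPM in the knockdown group. The library kit keeps strand, but no source states the strand setting of the counting, so reads of the introns of RB1 within LPAR6 could not be set apart.

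LPAR4 and LPAR5 were at the limit of detection and below the minimum mean. LPAR4 had 5, 3 and 3 reads with control siRNA and 30, 11 and 17 reads with CREM siRNA. LPAR5 had 5, 4 and 5 reads with control siRNA and 3, 0 and 0 with CREM siRNA, and a count of 0 allows up to 0.123 and 0.121 CPM in the last 2 libraries. No fold change is given for them.

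CREM and its fusion bind the cAMP response element, whose full form is TGACGTCA and whose core is TGACG. RefSeq windows of 300 bases around transcript starts (250 before and 50 after, GRCh38.p14) were on hand for 8 of the 10 genes, 13 windows in all, of which 6 belong to LPAR1. No window was on hand for ENPP2 or PLPP1, so their promoters were not searched. Both strands were searched, and the 5-base core is part of the 6-base TGACGT and of the full element. The full element was in 0 of the 13 windows and in 1.85% of all 35116 windows. TGACGT was in 1 window, that of LPAR5, and in 7.98% of all windows, and the core was in 3 windows, those of 2 LPAR1 starts and of LPAR5, and in 24.6% of all windows. A match here is a description of letters and not of binding. The upstream bases outside annotated exons are shown for the LPAR1 start with a core before it, for LPAR5, and for LPAR3, whose window holds no core, with the matched letters in capitals and each sequence running toward the start on the minus strand.
LPAR1 chr9:111037630-111037840: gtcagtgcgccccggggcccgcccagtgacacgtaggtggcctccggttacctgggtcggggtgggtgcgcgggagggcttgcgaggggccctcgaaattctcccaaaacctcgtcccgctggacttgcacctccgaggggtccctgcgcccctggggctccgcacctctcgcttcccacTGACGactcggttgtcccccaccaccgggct
LPAR5 chr12:6631672-6631899: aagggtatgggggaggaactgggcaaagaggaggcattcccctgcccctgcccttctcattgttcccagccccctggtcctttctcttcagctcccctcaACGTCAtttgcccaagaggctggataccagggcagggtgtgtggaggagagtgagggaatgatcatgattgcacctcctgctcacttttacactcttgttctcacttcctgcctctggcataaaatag
LPAR3 chr1:84893214-84893456: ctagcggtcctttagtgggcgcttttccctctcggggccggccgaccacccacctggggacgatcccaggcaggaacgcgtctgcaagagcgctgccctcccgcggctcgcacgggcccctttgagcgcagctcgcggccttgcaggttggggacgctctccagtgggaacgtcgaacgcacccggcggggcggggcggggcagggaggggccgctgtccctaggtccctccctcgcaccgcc

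In LPAR1 the core begins 31 bases before that transcript start, and the other LPAR1 window with a core has it 20 bases after its start. In LPAR5 the 6 bases read as ACGTCA because the element is on the other strand. The LPAR1 and LPAR3 windows shown have a GC content of 68.3% and 71.3%, and that of LPAR5 56.0%. The files do not say which LPAR1 start was used in CHL-1 cells.

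Among the phosphatases, PLPP2 was the highest before knockdown and the only one that was lower after it. It was at 172, 166 and 176 CPM with control siRNA and at 70.2, 73.2 and 81.6 CPM with CREM siRNA, 43.8% of the control mean with no overlap (log2 difference -1.19, standard error 0.0608). PLPP3, whose product also takes part in vascular development in mice, was at 40.6, 41.9 and 44.3 CPM against 116, 103 and 109 CPM, or 2.58 times the control mean (log2 difference 1.36, standard error 0.0597). PLPP1 was at 22.0, 23.8 and 26.3 CPM against 42.8, 41.0 and 42.3 CPM, or 1.75 times (log2 difference 0.80, standard error 0.0705). The CREM siRNA values of both lay above every control value. PLPP1 overlaps the end of MTREX on the opposite strand of chromosome 5, and MTREX had means of 80.2 CPM before and 76.6 CPM after knockdown. PLPP2 lies on chromosome 19 from 281040 to 291504, PLPP3 on chromosome 1 from 56494747 to 56645301, and PLPP1 on chromosome 5 from 55424854 to 55535050. PLPP3 overlaps AC119674.2, annotated as protein-coding on the same strand from 56173433 to 56524495. That gene was not found in the deposited CPM table, so reads of the shared stretch could not be set apart.

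Over all 10 genes, 6 had CREM siRNA values above every control value, 2 had them below, and 2 overlapped. Of the 8 that passed the minimum mean of 1 CPM, 6 did not overlap. Among all genes tested the groups did not overlap at 76.2%, with 38.4% higher and 37.8% lower after knockdown. The 10 were chosen with this contrast known, and nothing is read from the count.

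Levels of different genes were compared as RPKM, which is CPM per kilobase of the length the authors used. With control siRNA, PLPP2 stood first at 110 ± 3.19 RPKM, followed by ENPP2 at 40.5 ± 4.87, PLPP3 at 12.8 ± 0.571 and PLPP1 at 11.4 ± 1.01 RPKM (SD, n = 3 each). PLPP3 and PLPP1 overlapped and did not differ beyond their spread. LPAR6 led the receptors at 2.53 ± 0.463 RPKM, before LPAR2 at 1.75 ± 0.450 and LPAR1 at 1.26 ± 0.0620 RPKM, of which the last 2 overlapped, and LPAR3 followed at 0.258 ± 0.0403 RPKM. LPAR5 and LPAR4, at 0.0756 and 0.0492 RPKM, overlapped each other at the end of the order. With CREM siRNA, ENPP2 stood first at 674 ± 47.8 RPKM, rank 46 of all genes, before PLPP2 at 48.4 ± 3.80, PLPP3 at 33.0 ± 1.96 and PLPP1 at 19.9 ± 0.432 RPKM, with no overlap between neighbours. LPAR1 then led the receptors at 14.0 ± 1.00 RPKM, while LPAR6 (2.46 ± 0.258), LPAR3 (2.24 ± 0.107) and LPAR2 (1.87 ± 0.250 RPKM) overlapped in turn. LPAR4, at 0.196 ± 0.0778 RPKM, and LPAR5, at 0.0116 RPKM, came last.

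**Figure D2:**
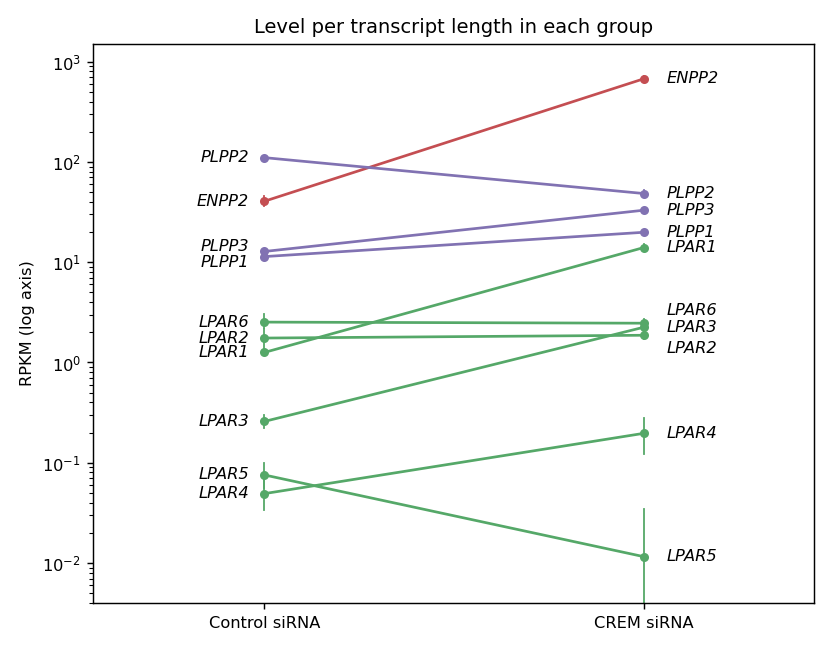
Mean RPKM of each gene on a log axis in the control siRNA group (left) and the CREM siRNA group (right), with vertical lines from the lowest to the highest of 3 libraries (the line of LPAR5 with CREM siRNA runs off the axis to 0). ENPP2 goes from 40.5 to 674 RPKM and passes PLPP2, and LPAR1 goes from 1.26 to 14.0 RPKM and passes LPAR6 and LPAR2.

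The makeup of each class therefore differed between the groups. Summed over the 6 receptors, the level was 5.92 ± 0.942 RPKM with control siRNA and 20.8 ± 1.28 RPKM with CREM siRNA (SD, n = 3 each). LPAR6 made up 40.3 to 44.2% of this sum in control libraries and 11.0 to 12.3% after knockdown, and LPAR1 18.8 to 23.5% and 65.5 to 68.5%. The EDG receptors LPAR1, LPAR2 and LPAR3 together went from 55.2 ± 2.64% to 87.2 ± 1.03% of the sum. The phosphatase sum was 101 ± 3.97 RPKM after knockdown against 135 ± 4.20 RPKM, or 0.752 times, but with scaling by reference genes the ratio was 0.983 and the groups overlapped. The receptor sum was 3.51 times its control as deposited and 4.59 times with that scaling. Shares within a library do not depend on its scaling. PLPP2 made up 81.4 to 83.0% of it in control libraries and 45.1 to 49.9% in CREM siRNA libraries, and PLPP3 9.19 to 9.67% and 31.2 to 34.8%. ENPP2 was at 0.300 ± 0.0266 times the phosphatase sum within each control library and at 6.65 ± 0.255 times that sum within each CREM siRNA library. These sums are of transcripts and give no amount of protein or of LPA.

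**Figure D3:**
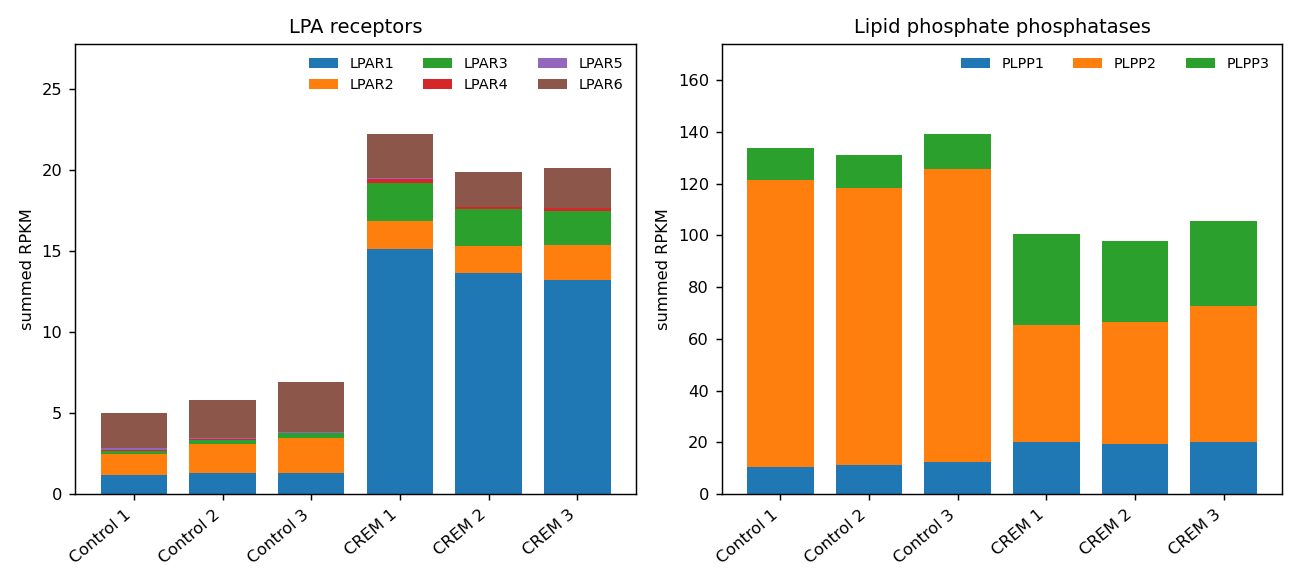
Summed RPKM of the 6 LPA receptors (left) and the 3 lipid phosphate phosphatases (right) in each library, with a colour for each gene. The receptor sum is 5.04 to 6.91 RPKM in control siRNA libraries and 19.9 to 22.2 RPKM in CREM siRNA libraries, mostly LPAR1, and the phosphatase sum is 131 to 139 and 97.7 to 106 RPKM as deposited but overlaps between the groups with scaling by reference genes.

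The genes around these were taken from 8 lists ordered by role, 104 genes in all, of which 80 had a mean of at least 1 CPM. Of these 80, 29 were higher and 30 were lower at an adjusted p under 0.05 from limma and 21 were not called, so 73.8% differed against the 74.1% of all genes. Their median log2 difference was 0.016, and 0.010 over all genes. With scaling by GAPDH 35 of them were higher and 23 lower, and with scaling by reference genes 48 and 16, so the balance of directions depends on the scaling.

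Further receptors that respond to LPA moved in both directions. TRPV1, the heat- and capsaicin-gated cation channel, rose from 2.28 ± 0.0990 to 7.29 ± 0.687 CPM (log2 difference 1.48, adjusted p = 3.24e-08 from limma, n = 3 each). PPARG, a nuclear receptor of adipocyte differentiation that binds LPA, fell from 29.2 ± 1.61 to 11.5 ± 1.03 CPM (log2 difference -1.30, adjusted p = 1.98e-09 from limma). GPR35 and P2RY10 were below the minimum mean, at 0.125 and 0.0605 CPM before and 0.724 and 0.0134 CPM after knockdown.

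Of 13 tested phospholipases and other enzymes that can give LPA or its precursors, 5 rose, 3 fell and 5 were not called. The glycerophosphodiesterases GDE1 and GDPD1, of which GDPD1 can release LPA from lysophospholipids, rose by 0.62 and 1.27 on the log2 scale (adjusted p = 3.76e-08 and 4.53e-07 from limma), and PLA2G6, a calcium-independent phospholipase A2, by 0.60. AGK, the mitochondrial kinase that phosphorylates monoacylglycerol to LPA, fell from 141 ± 8.74 to 79.8 ± 5.25 CPM (log2 difference -0.82, adjusted p = 1.90e-08). DDHD2, an intracellular phospholipase A1, fell by 0.73. PLD1, which makes phosphatidic acid, fell by 0.38 as deposited, but its difference was 0.0059 with scaling by reference genes. With scaling by GAPDH the PLD1 difference was -0.18 and was not called (adjusted p = 0.0949 from limma). LIPH, a phospholipase A1 that makes LPA from phosphatidic acid, rose from 3.15 ± 0.822 to 6.63 ± 0.209 CPM (log2 difference 0.99, adjusted p = 2.78e-05 from limma). Its relatives LIPI and PLA1A had means of 0 CPM with control siRNA and of at most 0.0136 CPM with CREM siRNA.

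Of 15 tested acyltransferases, which consume LPA or glycerol 3-phosphate or remake phosphatidylcholine from lysophosphatidylcholine, 7 fell, 1 rose and 7 were not called, which is 53.3% called. With scaling by GAPDH 5 rose and 6 fell, and with scaling by reference genes 9 rose and 3 fell, so the balance of this list turned with the scaling. AGPAT5, which turns LPA into phosphatidic acid, fell from 306 ± 16.0 to 142 ± 8.04 CPM (log2 difference -1.11, adjusted p = 2.81e-10 from limma). LPCAT4, a lysophospholipid acyltransferase, and LPCAT1, which uses lysophosphatidylcholine, the substrate of autotaxin, fell by 1.04 and 0.92. LPCAT2, a lysophosphatidylcholine acyltransferase known from inflammatory cells, was the higher one, from 55.7 ± 1.84 to 114 ± 6.23 CPM (log2 difference 1.03, adjusted p = 4.08e-10).

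Among 9 tested relatives of the phosphatases, 5 rose, 2 fell and 2 were not called. ACP6, a mitochondrial phosphatase of LPA, rose from 24.9 ± 2.27 to 63.7 ± 1.64 CPM (log2 difference 1.34, adjusted p = 1.54e-10 from limma). LPIN2, a lipin that makes diacylglycerol from phosphatidic acid, rose by 0.92, and PLPPR2, a phosphatase-related membrane protein, by 0.63. PLPP4 and PLPPR1 were low and had differences of -0.41 and -0.47 (adjusted p = 0.0328 and 0.0145). The call of PLPP4 was lost when any library but replicate 3 of the CREM siRNA group was left out (adjusted p between 0.0517 and 0.128), and that of PLPPR1 without replicate 2 of the control group (0.0548) or replicate 1 of the CREM siRNA group (0.0599). Both calls were also lost with scaling by GAPDH (adjusted p = 0.192 and 0.118), with scaling by reference genes (0.603 and 0.297) and with DESeq2 (0.122 and 0.0796). Without both replicate 3 libraries the call of PLPPR1 was lost and that of PLPP4 was kept (adjusted p = 0.0560 and 0.0130 from limma). In the equal-variance test on unlogged CPM the call of PLPP4 was lost and that of PLPPR1 was kept (adjusted p = 0.0895 and 0.0141).

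Of 21 G protein subunits and first effectors of LPA receptors, all tested, 11 fell, 6 rose and 4 were not called, but with scaling by reference genes 10 rose and 5 fell. The inhibitory subunits GNAI3 and GNAI2, which lower cAMP, fell from 159.8 ± 5.98 to 81.7 ± 4.93 CPM and from 338 ± 8.23 to 191 ± 3.28 CPM (log2 differences -0.96 and -0.82, adjusted p = 1.08e-09 and 1.41e-09 from limma). PLCB3, a phospholipase C that acts below Gq and Gi, fell by 1.32 (adjusted p = 3.42e-11). GNAQ, the Gq subunit, rose by 0.79, its effector gene PLCB1 by 0.66, and ARHGEF11, an exchange factor that carries G12/13 signals to RhoA, by 0.60.

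All 9 tested genes of sphingosine 1-phosphate, the sister lipid of LPA, were called, 5 higher and 4 lower. SGPP2, a phosphatase of sphingosine 1-phosphate, fell from 15.2 ± 1.74 to 1.57 ± 0.106 CPM (log2 difference -2.92, adjusted p = 1.22e-11 from limma), and the receptor S1PR3 fell from 3.93 ± 0.641 to 0.657 ± 0.157 CPM (log2 difference -1.94, adjusted p = 7.86e-08). SGPP1 had a difference of -0.45 and, with scaling by reference genes, one of -0.064 that was not called. The kinases SPHK2 and SPHK1, which make the lipid, and the lyase SGPL1, which breaks it down, rose by 0.53, 0.28 and 0.39.

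Of 11 tested transcripts known to be induced by LPA or serum, 6 rose, 2 fell and 3 were not called. The myosin light chain gene MYL9 and the focal adhesion gene VCL rose by 0.69 and 0.58 (adjusted p = 1.04e-07 and 2.99e-07 from limma), and FOSB, an immediate early gene, rose from 1.05 ± 0.0377 to 4.04 ± 0.539 CPM. TGFB2, a cytokine, fell by 1.55. EGR1 was uneven among the controls, at 134 CPM in replicate 1 against 15.4 and 16.9 CPM in the others, and at 65.3 to 85.9 CPM with CREM siRNA, and was not called (adjusted p = 0.354). CCN2, ANKRD1, ACTA2 and CXCL8 were below the minimum mean.

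**Figure D4:**
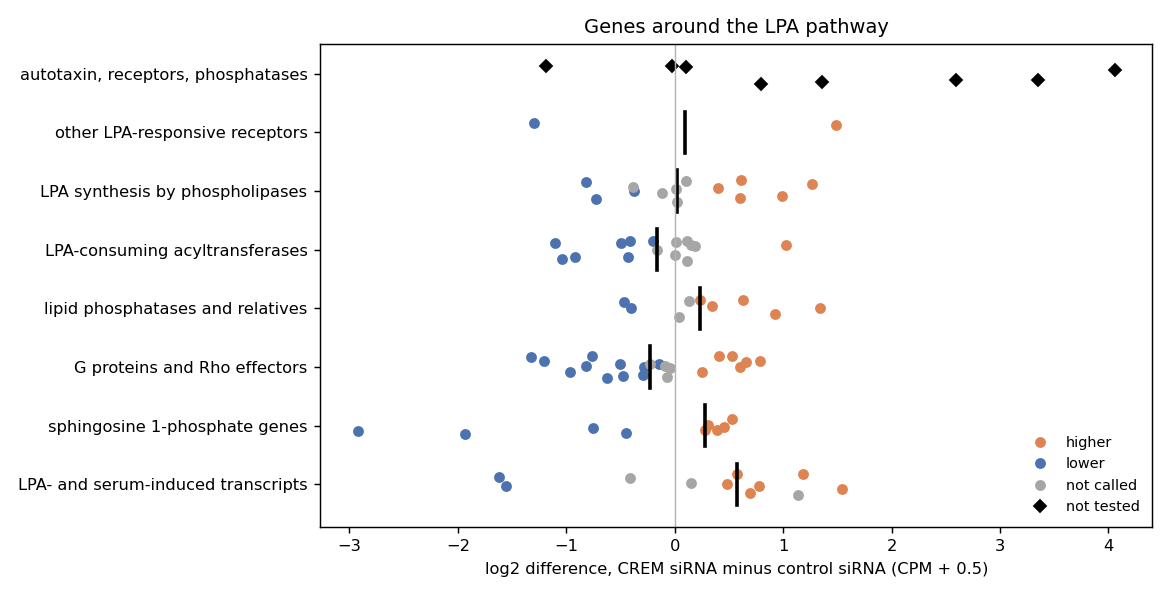
Log2 difference between CREM siRNA and control siRNA for each tested gene of the lists (points; orange higher, blue lower, grey not called; black line, median of the list), and for 8 of the 10 genes of autotaxin, receptors and phosphatases that had a mean of at least 1 CPM (diamonds, not tested). The list medians lie between -0.23 and 0.58, and ENPP2, at 4.06, lies above every listed gene.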

How the data were processed

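The authors deposited CPM and RPKM values of mRNA sequencing (stranded kit) for 6 libraries by Entrez ID. The submitters' processing notes name R 3.6.1 and hg38. Aligner, counter, annotation and strand setting: not given in the sources used here. The deposited CPM are whole reads times a step per library (100% of values within 0.001 of a whole read), which gave the read counts of 17221794 to 29793837 per library. The deposited RPKM are the CPM divided by a length per gene. The methods speak of normalization by GAPDH, but GAPDH was at 1298 to 1591 CPM, so these values were not scaled to constant GAPDH.

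The test was limma 3.58.1 (trend and robust variance, R 4.3.3, two-sided) on log2(CPM + 0.5) for 13536 genes averaging 1 CPM or more, with Benjamini-Hochberg adjustment over them and a threshold of 0.05. The methods state a t-test without saying on which scale. An equal-variance test on unlogged CPM and scaling by GAPDH were run as alternatives. Also run were other pseudocounts and filters, RPKM, 4 scalings, edgeR 4.0.16 and DESeq2 1.42.0 on the recovered reads, the replicate number as a block and leaving out each library. The tests were tested on simulated data. The genes and lists were chosen with earlier results of these data known. Named in the text are the 10 genes, CREM, all ENPP relatives and other LPA-responsive receptors, up to 3 genes in each direction of each other list by adjusted p, 5 genes most like ENPP2 and markers. Some genes that this rule names are not reported here. EGR1, LIPH, RB1, MTREX and genes named as below the minimum mean were named after their values were seen. Gene positions are those of GENCODE 29, and promoter windows those of RefSeq.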

Additional observations from a re-analysis of the deposited data

How the results depend on the processing

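The count of genes called, 10028, lay between 8736 and 11266 over the alternatives, and that of the pathway lists, 59 of 80, between 48 and 67, both within 1.5 times. Leaving out 1 library gave 9384 to 9892 genes and 56 to 63 pathway genes. The ENPP2 difference of 4.06 was 4.25 with scaling by GAPDH and 4.44 with scaling by reference genes, and 3.99 to 4.15 with 1 library left out. With these scalings the median over all genes shifted by 0.19 and 0.38, and they gave 6352 higher and 3314 lower, and 8460 higher and 2736 lower genes, against 5068 and 4960. In the pathway lists they gave 35 higher and 23 lower, and 48 higher and 16 lower genes, against 29 and 30. The differences of LPAR1, PLPP1 and PLPP3 stayed positive, and that of PLPP2 negative, in every alternative, at 2.73 to 3.72, 0.74 to 1.18, 1.30 to 1.74 and -1.25 to -0.80, and that of LPAR3, which a mean of at least 5 CPM left out, was 1.37 to 3.12. LPAR2 (-0.090 to 0.46) and LPAR6 (-0.12 to 0.34) took either sign. PLD1 turned from -0.38 to 0.0059 with scaling by reference genes, and was -0.18 and not called with scaling by GAPDH. The counts without both replicate 3 libraries, a setting chosen after seeing the data, were 9630 and 62.

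The deposited columns number the libraries of each group as experiments, but no source says that a number marks an experiment shared by both groups. Deviations from the group means of same-numbered libraries had correlations of 0.338, 0.0495 and 0.238, and replicate 2 of the control group correlated better with replicate 1 of the CREM siRNA group, at 0.0648. With the replicate block 10736 genes and 67 pathway genes were called, and no call changed among the named pathway genes chosen by the rule. LPAR4 and LPAR5, with 0 to 30 reads per library, are limited by depth, and intervals for counts of 0 cover counting error only.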
